A study of Mus musculus with 8 samples.

Results

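The comparison described here was between C3H10T1/2 cells given wild type IhhN and cells that were not induced, at the level of microRNAs (miRNAs). C3H10T1/2 is a mouse mesenchymal cell line. IhhN is the signalling fragment of the secreted protein Indian hedgehog (IHH), here recombinant and of human sequence. In the WT group the protein was present at 750 nM for 48 h. Both groups were grown in the same serum-containing medium, and the control group is labelled as having no induction, although its labels repeat the dose. The samples were chosen by their induction label alone, which gave 4 of the 6 RNA samples of the series and 6 of its 8 arrays. Each group had 2 RNA samples (n = 2), and each WT sample was hybridized to 2 arrays, whose log2 signals were averaged. The remaining group, given E95K mutant IhhN, entered the fit only to estimate the spread. Of 611 mouse miRNAs on the array, the 23.2% detected on every array of at least 1 group were tested. Every miRNA tested was detected on both control arrays, but not every one on all WT arrays. None thus entered through the WT group alone, and in effect the filter selected on detection in control. The counts and shares below rest on this set, in which lower WT values among dim miRNAs are partly built in. The labels do not say whether the RNA samples of a group came from separate cultures, so the p-values below measure only the spread between these samples. The cells are a single established line, and all measurements belong to 1 time point.

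A miRNA is cut from one arm of a hairpin RNA by Drosha and Dicer and guides an Argonaute protein to mRNAs, mostly through its seed, bases 2 to 8 of the mature strand. miRNAs with the same seed form a family and can bind the same mRNAs, and neighbouring miRNA genes are often transcribed together as a cluster. Hedgehog proteins bind the receptor Patched, which releases Smoothened and turns on Gli transcription factors. In the growth plate IHH paces the proliferation and maturation of chondrocytes, and mesenchymal lines such as C3H10T1/2 respond to it by moving towards bone or cartilage cells. Fibroblast-like and mesenchymal cells are known for abundant let-7, miR-21, miR-125b, miR-199a and miR-214.

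Mature sequences were found in RefSeq (GRCm38.p6) for 118 of the miRNAs tested (83.1%). Those below are the members on which the results turn, grouped by seed, with the seed in capitals, because members of a family that share these letters differed in direction. The let-7 family shares the seed GAGGUAG, and its members differ from each other at a few bases outside it.
let-7b-5p: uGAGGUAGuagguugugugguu
let-7c-5p: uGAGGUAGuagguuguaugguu
let-7a-5p: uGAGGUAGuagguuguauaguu
let-7f-5p: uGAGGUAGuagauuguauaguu
let-7g-5p: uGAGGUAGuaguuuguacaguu
The miR-29 family is shown because its lowest and highest 3p strands lay farthest apart.
miR-29b-3p: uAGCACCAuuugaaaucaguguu
miR-29c-3p: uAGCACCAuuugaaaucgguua
miR-29a-3p: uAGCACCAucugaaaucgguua
The miR-15/16 seed is also that of miR-322-5p, and 1 of its members went the other way.
miR-15a-5p: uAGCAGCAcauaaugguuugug
miR-16-5p: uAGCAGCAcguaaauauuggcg
miR-322-5p: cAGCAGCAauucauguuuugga
miR-15b-5p: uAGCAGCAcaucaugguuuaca
The miR-148 and miR-152 family is shown for the same reason.
miR-148a-3p: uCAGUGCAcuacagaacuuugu
miR-152-3p: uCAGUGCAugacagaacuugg
miR-148b-3p: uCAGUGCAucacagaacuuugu
The miR-17 seed is held by members of 3 related clusters.
miR-106b-5p: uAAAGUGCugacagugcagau
miR-20a-5p: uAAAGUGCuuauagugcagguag
miR-20b-5p: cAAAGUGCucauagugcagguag
miR-93-5p: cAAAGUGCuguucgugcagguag
The miR-99/100 seed is shown as one whose tested members all had positive differences with the scaling used here.
miR-99a-5p: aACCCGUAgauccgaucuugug
miR-100-5p: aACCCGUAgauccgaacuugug
miR-99b-5p: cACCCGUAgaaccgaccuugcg
The strands below also had low values, and no sequence was matched for miR-21-5p.
miR-19b-3p: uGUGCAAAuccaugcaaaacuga
miR-301a-3p: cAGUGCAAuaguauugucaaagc
miR-130a-3p: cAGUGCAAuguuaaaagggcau
miR-26b-5p: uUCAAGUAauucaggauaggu
miR-34b-5p: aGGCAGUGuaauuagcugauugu
Those with high values are represented by 2 strands of repeated UG and 4 others.
miR-1187: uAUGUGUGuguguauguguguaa
miR-574-5p: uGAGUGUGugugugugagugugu
miR-455-3p: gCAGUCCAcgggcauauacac
miR-193b-3p: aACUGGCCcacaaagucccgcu
miR-423-5p: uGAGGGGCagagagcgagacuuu
miR-484: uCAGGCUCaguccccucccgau

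All arrays lay on 1 slide, with the WT arrays in row 1 and the control arrays in row 2, so slide row and group cannot be told apart. The arrays of WT replicate 1 were in columns 1 and 2, and those of WT replicate 2 and of the control group were in columns 3 and 4. WT replicate 1 gave detectable signal for 17.02% and 19.15% of mouse miRNAs on its arrays, and the other 4 arrays of these groups for 23.6% to 24.5%. The SD of the negative control spots was 6.63 and 3.76 signal units on the arrays of WT replicate 1 and 2.91 to 3.38 on the other 4. No spot was saturated. The labelled cell type was checked by markers. Of 14 mesenchymal marker strands on the array, 12 were detected on both control arrays, with miR-21-5p the brightest, whereas 0 of 7 muscle, 0 of 12 epithelial, 0 of 3 liver and 0 of 2 endothelial marker strands were detected on any array of these groups. Among 22 pluripotent cell marker strands only miR-290-3p was detected, on 1 WT array and neither control array. Of the neural and blood cell markers only miR-128-3p and miR-155-5p were tested, near the floor of the measurement in control (4.48 and 4.89 on the log2 scale, floor 4.08), and miR-124, miR-9, miR-142 and miR-223 were not detected.

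The differences between the WT and control groups were mostly smaller than a fold of 2, and none passed the test. In limma's moderated test 0 of the miRNAs tested had an adjusted p under 0.05, with a smallest adjusted p of 0.139. At an unadjusted p under 0.05 there were 40 miRNAs (28.2% of those tested), 25 higher in the WT group (17.6%) and 15 lower (10.6%). Without WT replicate 1 the number was 9, and without control replicate 2 it was 26. Detection in control without detection on every WT array was enough to be tested, as for miR-19b-3p and miR-301a-3p. A fold above 2 was reached by 3 miRNAs (2.11%), which were miR-19b-3p, miR-29b-3p and miR-301a-3p, all lower in the WT group. Without WT replicate 1 none reached it, and without WT replicate 2 there were 5. The values of the WT arrays lay entirely above or entirely below both control values for 74 miRNAs (52.1%), 42 above (29.6%) and 32 below (22.5%). Of the 42 above, 6 were not detected on every WT array, and of the 32 below, 13 were not. The number without overlap was 116 without control replicate 1, where each miRNA was compared with a lone control array.

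Over all miRNAs tested the median difference, WT minus control, was 0.12 on the log2 scale, the extremes were -1.14 and 0.85, and 61.3% of the differences were above 0. The median size of a difference without its sign was 0.32, against a median standard error of 0.18. The median SD between replicates was 0.13 in the WT group and 0.14 in the control group. Where the 75th percentile used for scaling was taken over all mouse probes instead of over those detected on every array, the median difference was -0.19, and it was 0.23 with normexp background correction and -0.0041 with the total gene signal, so family values below are also given relative to the median of all miRNAs tested. Values of single miRNAs under these settings include this shift unless given relative to that median. Both WT replicates were set against the same control samples, so agreement in sign is partly built in. For 87.3% of the miRNAs tested both WT replicates lay on the same side of the control mean. WT replicate 1 lay farther from it for 78.2%, with a median size of 0.39 against 0.24 for WT replicate 2, which shared its columns of the slide with the control arrays. Both E95K arrays were in columns 1 and 2, so a term for the side of the slide could be estimated only from the difference between the WT replicates, and side and WT replicate 1 cannot be told apart.

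The differences did not follow the level of expression. When the miRNAs were ordered by their mean level over the WT and control samples and divided into 4 parts, the median difference was 0.09, 0.19, 0.10 and 0.12 from the dimmest part to the brightest. The median size of the differences was 0.26, 0.42, 0.38 and 0.24, so it was larger in the middle parts than at both ends. Across the miRNAs tested Pearson's r between level and difference was 0.01 and Spearman's rho was -0.01, as a description of miRNAs measured on the same arrays. Among the 104 detected on all 6 arrays r was -0.11 and rho -0.20. Of 36 miRNAs in the dimmest part, 2 were detected on all 6 arrays, against all 36 in the brightest part. Values at the floor have no order. The plot of difference against level shows the fall of spread at both ends.

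**Figure D1:**
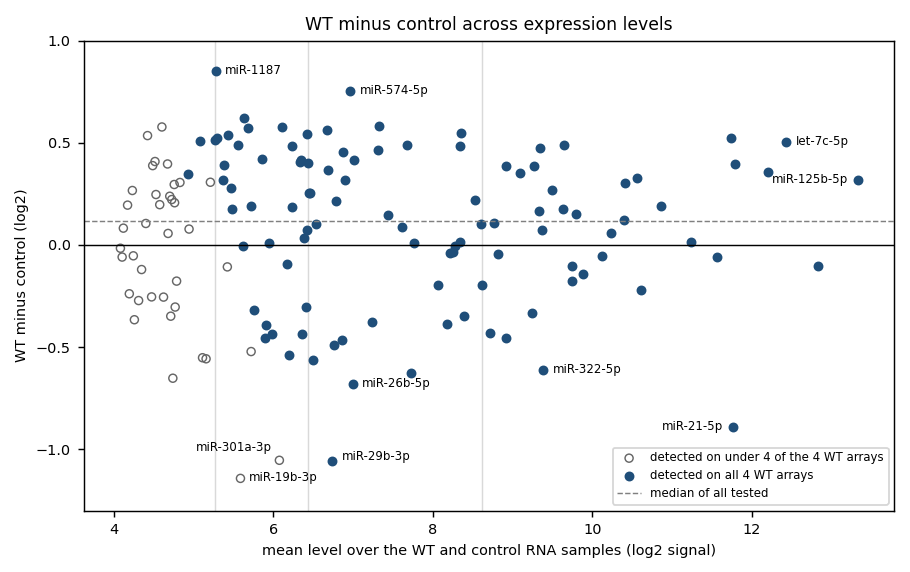
Difference between the WT and control groups (vertical axis, log2) against the mean level over both groups (horizontal axis, log2 signal) for the miRNAs tested, with grey vertical lines between the 4 parts and open circles for miRNAs not detected on all 4 WT arrays. The points spread on both sides of the median of 0.12 at every level, and miR-21-5p stands apart among the bright miRNAs at -0.89.

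The brightest miRNAs in control were miR-125b-5p, miR-720, miR-21-5p, let-7c-5p, let-7a-5p, miR-709, miR-23a-3p, let-7b-5p, let-7f-5p and let-7e-5p. miR-125b-5p, a regulator of proliferation and of p53, read 13.56 and 13.65 in WT replicate 1, 13.32 and 13.39 in WT replicate 2, and 13.25 and 13.08 in the control samples, on the log2 scale of the signal. All 4 of its WT values were above both control values, and the difference was 0.32 ± 0.16 (SE, n = 2 per group). miR-23a-3p, at -0.06, and let-7f-5p, at 0.01, had overlapping groups. miR-720, which is held to be a piece of a tRNA rather than a miRNA, differed by 0.83 between the control samples, at 13.30 and 12.47, and by -0.10 between the groups.

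Among the 104 miRNAs detected on all 6 arrays, 55 had WT values entirely on one side of both control values, 36 above and 19 below. The 12 highest differences among them are led by miR-1187 and miR-574-5p, the strands of repeated UG printed above. miR-1187 read 5.73 and 5.81 in WT replicate 1, 5.66 and 5.63 in WT replicate 2, and 4.50 and 5.20 in the control samples. Its WT values lay close together and above both control values, which differed from each other by 0.70. The difference was 0.85 ± 0.24 (SE), a fold of 1.81, with an adjusted p of 0.139 in limma. miR-574-5p, from an intron of Fam114a1, read 7.31, 7.44, 7.26 and 7.35 on the WT arrays and 6.34 and 6.82 in control. It was 0.75 ± 0.20 higher, a fold of 1.69, again with tightly grouped WT values and control samples farther apart.

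miR-455-3p, from an intron of the cartilage collagen gene Col27a1 and abundant in chondrocytes, read 5.91, 5.89, 6.02 and 5.98 on the WT arrays and 5.22 and 5.43 in control. Its difference of 0.62 ± 0.21 was of like size in both WT replicates, but it was -0.52 with the total gene signal that Feature Extraction gives for each miRNA. miR-193b-3p, which is known from brown fat and from cartilage, read 7.74 and 7.90 in WT replicate 1, 7.35 and 7.50 in WT replicate 2, and 7.06 and 7.02 in control. All its WT values lay above control, with replicate 1 farther away, and the difference was 0.58 ± 0.18. The other 8 were miR-423-5p (0.57), miR-202-3p (0.56), miR-99b-5p (0.55), miR-1904 (0.54), miR-149-5p (0.54), miR-484 (0.53), let-7b-5p (0.53) and miR-328-3p (0.51). In limma all 12 had an unadjusted p under 0.05, as had 28.2% of all miRNAs tested. They were picked as large differences without overlap in these same data, so this count adds no support for them. None had an adjusted p under 0.05. With normexp background correction 10 of them had one, among 22 of all miRNAs tested.

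The 12 lowest differences ran from -1.06 to -0.43 and the 12 highest from 0.85 to 0.51. The low end thus began farther from 0 but ended nearer to it. Each of the 12 lowest was larger in size in WT replicate 1 than in WT replicate 2. miR-29b-3p, which binds mRNAs of collagens and other matrix proteins, read 5.91 and 5.88 in WT replicate 1, 6.52 in both arrays of WT replicate 2, and 7.36 and 7.18 in control. Every WT value lay below control, with the replicates of the WT group 0.62 apart. The difference was -1.06 ± 0.23, a fold of 2.08 lower, with a p of 0.00227 and an adjusted p of 0.139. It was the only miRNA with an adjusted p under 0.05 in limma when the fit held the WT and control groups alone (0.0394, within a range of 0.0394 to 0.83 over its alternatives). With the total gene signal its difference was 2.41. miR-21-5p, a miRNA abundant in most growing cells that lowers Pdcd4, read 10.87 and 11.02 in WT replicate 1, 11.67 and 11.71 in WT replicate 2, and 12.13 and 12.29 in control. It was the only one of the 10 brightest miRNAs in this group, at -0.89 ± 0.28, a fold of 1.86 lower, with the WT replicates standing well apart from each other. With normexp background correction its difference was -0.94 with an adjusted p of 2.15e-05 in limma, the lowest over its alternatives, of which the highest was 0.83.

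miR-26b-5p read 6.46 and 6.41 in WT replicate 1, 6.90 and 6.85 in WT replicate 2, and 7.25 and 7.43 in control. miR-26b-5p lies in an intron of Ctdsp1 and shares its seed with miR-26a-5p, and its difference was -0.68 ± 0.20. miR-34b-5p, of a cluster that p53 turns on, read 7.16 and 7.12, 7.67 and 7.71, and 7.90 and 8.18 in the same order, a difference of -0.63 ± 0.22. For both of them the 3 pairs of values lay apart from each other, with WT replicate 1 lowest. The others were miR-148a-3p (-0.56), miR-31-3p (-0.49), miR-15a-5p (-0.46), miR-16-5p (-0.45), miR-218-5p (-0.45), miR-152-3p (-0.44), miR-350-3p (-0.43) and miR-130a-3p (-0.43). With normexp background correction miR-218-5p was at 0.12, miR-152-3p at 0.018 and miR-350-3p at 0.088, and with the total gene signal miR-350-3p was at 0.11. Relative to the median of all miRNAs the 3 normexp values were -0.12, -0.22 and -0.14. The plot of these miRNAs by array shows both ends.

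**Figure D2:**
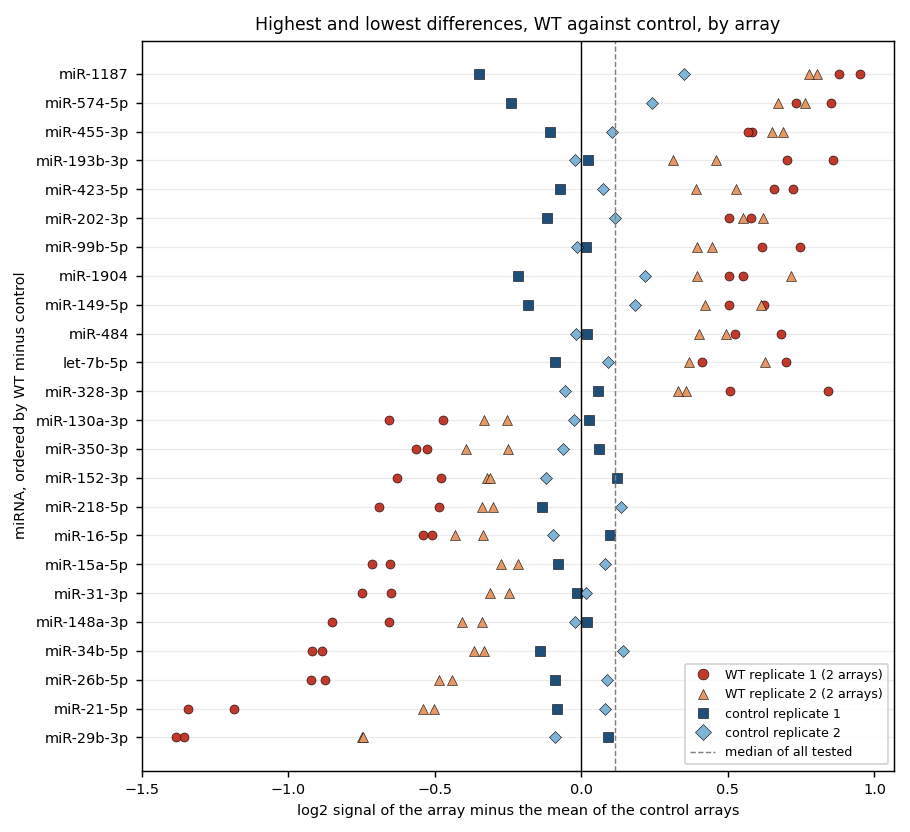
The 12 highest and 12 lowest differences among miRNAs detected on all 6 arrays with groups that did not overlap. Each point is the log2 signal of 1 array minus the mean of the control arrays, circles and triangles are the arrays of WT replicates 1 and 2, squares and diamonds the control samples, and for the lowest miRNAs WT replicate 1 lies farther from control than WT replicate 2 on every array.

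The miRNAs beyond a fold of 2 that are not in that plot were not detected on every WT array. Of the WT and control groups only control, where they were higher, let them pass the filter. miR-19b-3p, a member of the miR-17 to miR-92a cluster, was detected on the arrays of WT replicate 2 alone in the WT group. It read 4.39 and 4.51 in WT replicate 1, 5.60 and 5.58 in WT replicate 2, and 6.06 and 6.26 in control, a difference of -1.14 ± 0.36. WT replicate 1, near the floor of 4.08, lay at -1.71 relative to the control mean and WT replicate 2 at -0.57. miR-301a-3p, from an intron of Ska2, was detected on 3 WT arrays and read 4.96 and 5.12, 6.06 and 6.07, and 6.53 and 6.68 in the same order. Its difference was -1.05 ± 0.36. In all, 38 of the miRNAs tested were not detected on all 4 WT arrays, 31 of these were detected on both arrays of WT replicate 2, and 25 on neither array of WT replicate 1. Of the 38, 6 had WT values entirely above control and 13 entirely below, against 29.6% and 22.5% of all miRNAs tested. Of the WT and control groups only control let these 38 pass the filter, so an excess below control is partly built in. miR-195-5p, miR-7a-5p, miR-101a-3p and miR-22-5p were detected on both control arrays and on no WT array. Their control means of 4.09 to 4.44 lay below the lowest level that counted as detected on the WT arrays, 4.53 on average, so no fold is given for them.

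By family, the let-7 members were split. The let-7 family restrains proliferation and is high in differentiated cells, and 9 of its members were tested, all detected on all 6 arrays. Their median difference was 0.19, or 0.07 relative to the median of all miRNAs, and -0.09 relative to it with the total gene signal. At an unadjusted p under 0.05, 3 of the 9 were higher and 0 lower, against 17.6% and 10.6% of all miRNAs tested. The groups did not overlap for 4, all higher, against 29.6% of all. let-7b-5p read 11.89 and 12.17 in WT replicate 1, 11.84 and 12.10 in WT replicate 2, and 11.38 and 11.56 in control, a difference of 0.53 ± 0.16. let-7c-5p was at 0.50 ± 0.17 and let-7a-5p at 0.36 ± 0.15. These strands are the first printed above. let-7d-5p (0.33) was also above control on every array, let-7e-5p (0.19) and let-7f-5p (0.01) overlapped with it, and let-7g-5p (-0.20), let-7i-5p (-0.14) and miR-98-5p (-0.09) had negative differences with overlapping groups. Probes of such similar strands can take up each other's RNA, which was not tested. The 2 probes of let-7f-5p differed by 0.33, the widest gap among the 72 miRNAs with several probes detected on all 6 arrays, for which the median gap was 0.05.

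The miR-99/100 and miR-125 families, the mammalian relatives of lin-4 and its neighbours, had members that all lay on one side of control with the scaling used here. All 5 members tested were above both control values on every WT array, as were 29.6% of all miRNAs tested, with differences from 0.15 for miR-99a-5p to 0.55 for miR-99b-5p, a median of 0.32 and 0.20 relative to the median of all. miR-99b-5p read 8.69 and 8.82 in WT replicate 1, 8.47 and 8.52 in WT replicate 2, and 8.09 and 8.06 in control. miR-125a-5p, of the same cluster, read 9.52, 9.70, 9.48 and 9.61 on the WT arrays and 9.16 and 9.05 in control. Its difference was 0.47 ± 0.15. The WT replicates lay 0.11 apart for miR-125a-5p and 0.26 apart for miR-99b-5p, and the control samples 0.06 and 0.03. With normexp correction the median of these families was 0.00 relative to the median of all. With scaling over all mouse probes their median difference was -0.04, or 0.14 relative to the median of all. miR-99a-5p (-0.20), miR-100-5p (-0.14) and miR-125b-5p (-0.04) were then below 0, and miR-125a-5p (0.12) and miR-99b-5p (0.19) above it. The median of the 5 was 0.44 in WT replicate 1 and 0.19 in WT replicate 2.

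A copy of miR-199a and miR-214 are transcribed together from the opposite strand of Dnm3, and miR-199 and miR-214 are marks of mesenchymal cells. Their 5 strands had a median difference of 0.35, or 0.24 relative to the median of all. miR-214-3p read 9.91, 10.00, 9.83 and 9.83 on the WT arrays and 9.49 and 9.32 in control, a difference of 0.49 ± 0.15. miR-199a-5p (0.39) and miR-199b-5p (0.35) were also above control on every array, while miR-199a-3p, the brightest of the 5, was below it on every array at -0.22 ± 0.16. The miR-181 family, known from muscle and lymphoid differentiation, had 2 members tested, both above control on every array, at 0.49 for miR-181a-5p and 0.39 for miR-181b-5p. miR-181a-5p was at -0.09 relative to the median of all with the total gene signal. miR-140 is the miRNA most closely tied to cartilage, and its strands were at 0.30 for miR-140-3p, of which the control values of 10.56 and 9.96 overlapped with WT values that began at 10.43, and at -0.20 for miR-140-5p, also overlapping.

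The lowest families were those of miR-130 and miR-301, of miR-148 and miR-152, of miR-26, and of miR-15 and miR-16. Their medians relative to that of all miRNAs were -0.86 for miR-130 and miR-301, -0.55 for miR-148 and miR-152, -0.54 for miR-26 and -0.53 for miR-15/16, and each was below 0 under all 4 other scalings and background corrections tried. With normexp correction they came to -0.52, -0.22, -0.45 and -0.19 in the same order, and the medians of miR-148 and miR-152 and of miR-15/16 before the median of all was taken off were then 0.02 and 0.04. The first and the third rest on 2 miRNAs each, miR-301a-3p and miR-130a-3p, and miR-26b-5p and miR-26a-5p. Of the WT and control groups, miR-301a-3p passed the detection filter only in control. The same holds for miR-195-5p of the miR-15/16 family, which was detected on no WT array. The median of that family lies midway between miR-16-5p (-0.45) and miR-195-5p (-0.37), so it rests partly on a value at the floor. In the miR-148 and miR-152 family, known to lower DNA methyltransferases, miR-148a-3p read 5.93 and 6.13 in WT replicate 1, 6.45 and 6.38 in WT replicate 2, and 6.80 and 6.76 in control. miR-148b-3p read 6.58, 6.66, 6.51 and 6.49 on the WT arrays and 6.06 and 6.23 in control. The first was thus below control on every array and the second above it on every array, at -0.56 ± 0.19 and 0.42 ± 0.16, although their printed strands share the seed and their last 12 bases. With the total gene signal miR-148b-3p was at -0.27 relative to the median of all.

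The miR-15/16 family, which slows the cell cycle by lowering cyclins, held a like contrast. miR-16-5p, its brightest member, read 8.60 and 8.63 in WT replicate 1, 8.80 and 8.71 in WT replicate 2, and 9.24 and 9.04 in control, a difference of -0.45 ± 0.20. miR-15a-5p, from the same cluster as a copy of miR-16, was at -0.46 ± 0.19. miR-15b-5p, from another cluster with a copy of miR-16, read 9.20 and 9.34, 8.89 and 9.02, and 8.92 and 8.54 in the same order, a difference of 0.39 ± 0.19 with overlapping groups. The mature miR-16 is the same from both clusters, so its signal does not separate them. miR-322-5p, whose seed is that of miR-15/16, is the first miRNA of a cluster on the X chromosome that also holds miR-503, miR-351, miR-450 and miR-542. It read 8.57 and 8.69, 9.49 and 9.56, and 9.33 and 10.05, so that the groups overlapped at a difference of -0.61 ± 0.34. Of the 8 strands tested from that cluster, miR-351-5p was the highest at 0.48, and the median was -0.51 in WT replicate 1 and 0.01 in WT replicate 2. miR-542-3p, at -0.65, was at the floor on both arrays of WT replicate 1, and with normexp correction it was at 0.15.

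The miR-17 to miR-92a cluster, its copies miR-106a to miR-363 and miR-106b to miR-25, are proliferation-linked transcripts under Myc and E2F. From the first, miR-19b-3p (-1.14) and miR-20a-5p (-0.32) lay below control on every array and miR-92a-3p above it on every array. miR-92a-3p read 7.46, 7.65, 7.49 and 7.60 on the WT arrays and 7.04 and 7.13 in control, a difference of 0.47 ± 0.14. From the third, which lies in an intron of Mcm7, miR-106b-5p (-0.52 ± 0.16) was below control on every array, and miR-93-5p (0.45 ± 0.16) and miR-25-3p (0.32 ± 0.16) were above it on every array. Strands of one transcript thus lay on both sides of control, and the miR-17 seed itself was split, with miR-106b-5p, miR-20a-5p and miR-20b-5p (-0.26) below and miR-93-5p above. Of these groups only control let miR-19b-3p, miR-106b-5p and miR-20b-5p pass the filter, and they were detected on 2, 3 and 2 of the 4 WT arrays. Both contrasts thus rest partly on strands that entered by being high in control. With normexp correction the split of the seed was absent, with miR-106b-5p at 0.09, miR-20a-5p at 0.21, miR-20b-5p at 0.20 and miR-93-5p at 0.48, and miR-19b-3p was at -0.11. With the total gene signal miR-20a-5p was at 0.16. The median of the first cluster relative to that of all miRNAs was -0.44, and it was -0.03 with normexp correction and 0.17 with the total gene signal.

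The miR-29 family had 4 strands tested, from -1.06 for miR-29b-3p through -0.38 for miR-29c-3p and 0.12 for miR-29a-3p to 0.41 for miR-29b-1-5p. miR-29a-3p, the brightest, read 10.29 and 10.39 in WT replicate 1, 10.51 and 10.63 in WT replicate 2, and 10.47 and 10.19 in control, so the groups overlapped. In the miR-30 family, of which members lower Runx2 and Snai1, miR-30e-5p was at -0.55 ± 0.19, but at 0.20 with normexp correction and 2.70 with the total gene signal, and the other 4 ran from -0.35 to 0.15. The miR-23/24/27 clusters had 7 strands between -0.06 and 0.21, with overlapping groups for each. miR-103 and miR-107 (-0.01 and -0.04), and miR-221 and miR-222 (0.18 and 0.21), overlapped as well. miR-143-3p and miR-145-5p, which share a transcript, were at -0.30 and 0.35. Of 39 strands on the array from the group of miR-297, miR-466, miR-467 and miR-669, a large set of near repeats rich in UG, 2 were tested, miR-669n (0.58 ± 0.28) and miR-669f-3p (0.32 ± 0.23), both above control on every array. With the total gene signal miR-669f-3p was at -0.01 and miR-669n at 0.53, and the median of the 6 strands tested then was -1.68. miR-669n read 4.90, 4.97, 4.84 and 4.86 on the WT arrays and 4.08, the floor, and 4.56 in control. Members of this group are alike enough that their probes may share signal, which was not tested.

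**Figure D3:**
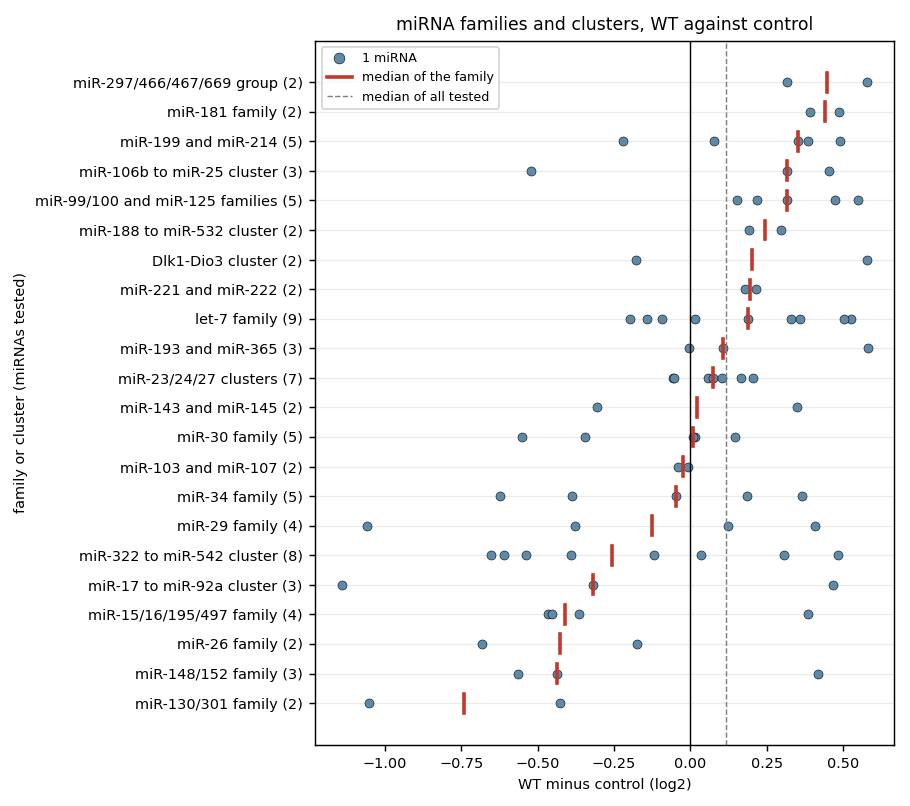
Differences between the WT and control groups (horizontal axis, log2) for the families and clusters with at least 2 miRNAs tested, in order of their medians. Each point is 1 miRNA, the red bar is the median of the family and the dashed line the median of all miRNAs tested at 0.12, and on this scaling most families have members on both sides of 0, with miR-99/100 and miR-125, miR-181 and miR-130 and miR-301 among those that do not.

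Lists by function were written from general knowledge, and their counts stand against the 17.6% higher and 10.6% lower over all miRNAs tested. Of 10 strands that bind mRNAs of hedgehog components or are linked to hedgehog signalling, 3 were higher and 0 lower at an unadjusted p under 0.05, the median was 0.29, and 0.17 relative to all miRNAs. The 3 were miR-92a-3p, miR-214-3p and miR-324-3p. miR-324-3p read 4.94, 4.97, 4.73 and 4.86 on the WT arrays and 4.47 and 4.49 in control, close to the floor. Its difference was 0.40, and -0.54 with the total gene signal, and its strand partner miR-324-5p, which binds Smo and Gli1 mRNAs, was at 0.25 with overlapping groups. miR-212-3p, which binds Ptch1 mRNA, was at -0.56 ± 0.30, with control samples of 5.64 and 5.24. It was at 0.21 with normexp correction and at 2.23 with the total gene signal. Of 6 strands of miRNAs that bind Runx2 mRNA, 0 were higher and 2 lower at the same threshold, miR-218-5p (-0.45) and miR-34c-5p (-0.39), with a median of -0.06 and -0.17 relative to all. Of 10 cartilage-related strands 3 were higher and 0 lower, miR-455-3p, miR-193b-3p and miR-199a-5p, with a median of 0.14 and 0.03 relative to all. Only 8 of the 10 were detected on all 6 arrays, and miR-101a-3p and miR-22-5p were detected on no WT array. The median lies midway between miR-22-5p (-0.02) and miR-140-3p (0.30), so it rests partly on a value at the floor. Of 5 miRNAs that do not need Drosha, 3 were higher and 0 lower, with a median of 0.42, or 0.30 relative to all, and a median share of G and C of 65.0% in the 3 with a sequence. Relative to all the median was 0.02 with normexp correction. They were miR-320-3p (0.42), miR-484 (0.53) and miR-702 (0.54), the last detected on 2 WT arrays.

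The arms of one hairpin are made from the same transcript, and both were tested for 14 pairs. In 10 pairs they had opposite signs, and in 8 they lay more than 0.5 apart. Opposite signs were found for 5 pairs with scaling over all mouse probes, 7 with quantile normalization, 10 with normexp correction and 11 with the total gene signal. The order of the arms was that of the values given here in 14, 11, 13 and 10 of the 14 pairs under these settings. miR-29b-1-5p read 4.64, 4.68, 4.70 and 4.88 on the WT arrays and 4.09 and 4.54 in control, above control on every array, while miR-29b-3p was at -1.06. With the total gene signal both turned, to -1.60 for miR-29b-1-5p and 2.41 for miR-29b-3p. That mature 3p strand is also made from another hairpin gene. miR-34b-3p was at 0.37 ± 0.16 and miR-34b-5p at -0.63 ± 0.22, each with groups that did not overlap. The same held for miR-542-5p (0.31) and miR-542-3p (-0.65) and for miR-199a-5p and miR-199a-3p. With normexp correction miR-542-3p was at 0.15. miR-31-3p (-0.49) lay below control on every array, whereas miR-31-5p (0.27), the brighter strand, overlapped with it. Groups overlapped for both arms of miR-140, and for miR-34c the 5p arm (-0.39) lay below control on every array and the 3p arm (0.19) overlapped with it. The difference between arms was not tested.

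**Figure D4:**
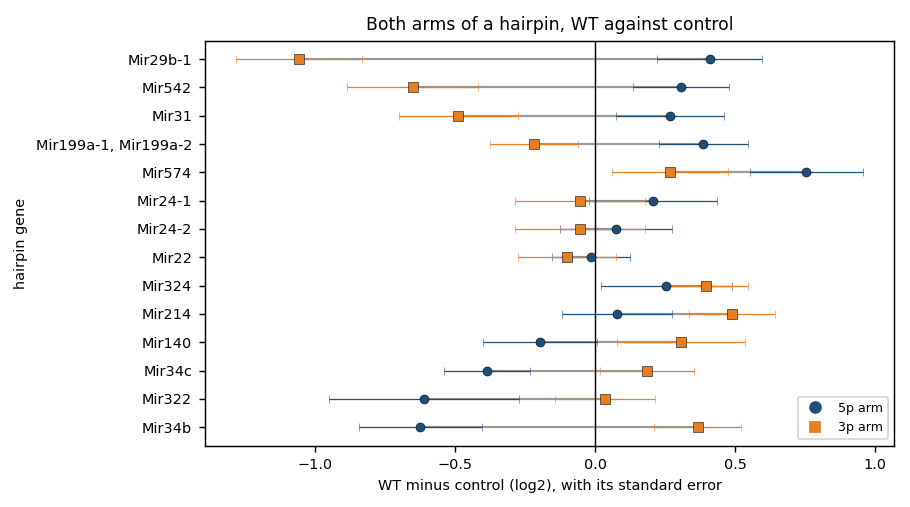
WT minus control (horizontal axis, log2) for both arms of each hairpin with both strands tested, with circles for 5p arms, squares for 3p arms and bars of 1 standard error from limma (n = 2 RNA samples per group). The arms lie on opposite sides of 0 in 10 of 14 pairs, and farthest apart for Mir29b-1, whose arms trade places with the total gene signal.

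The differences also varied with base composition, which neither the choice of samples nor the families used. Across the 118 miRNAs with a sequence, the share of G and C in the mature strand and the difference between the groups had a Pearson's r of 0.49 and a Spearman's rho of 0.51. These are a description, since the miRNAs share arrays and scaling. Of 21 miRNAs with under 40% G and C, 17 had negative differences, with a median of -0.32. Of 17 miRNAs with 60% or more, all 17 had positive differences, with a median of 0.40, and the parts between them had medians of -0.16, 0.10, 0.22 and 0.44 in order. The 4 with positive differences at the low end were miR-1187 (34.8% G and C), let-7a-5p (36.4%), let-7f-5p (31.8%) and miR-365-3p (31.8%).

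The relation was of like size in each WT replicate against control, at r = 0.47 for replicate 1 and 0.46 for replicate 2. These values use the same control samples and are not independent. For WT replicate 1 minus WT replicate 2, which were given the same protein, r was 0.35, and for control replicate 1 minus control replicate 2 it was -0.09. For the 2 arrays of one RNA it was 0.18 in WT replicate 1 and -0.06 in WT replicate 2. With the length of the mature strand r was -0.05. It was 0.48 with scaling over all mouse probes, 0.49 with quantile normalization, 0.45 with normexp correction and 0.28 with the total gene signal.

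Members of one family differed along the same line. The tested miRNAs held 19 groups with a shared seed, with 54 miRNAs, and in 15 of these groups the highest and the lowest member differed in G and C. In 13 of the 15 the highest member had the larger share. In the miR-29 family the shares were 34.8% for miR-29b-3p, 36.4% for miR-29c-3p and 40.9% for miR-29a-3p, the order of their differences. miR-148a-3p and miR-148b-3p, and miR-15a-5p and miR-15b-5p, had the same share of 40.9% and went apart all the same. With a linear trend on G and C removed from each RNA sample, limma left 24 miRNAs under an unadjusted p of 0.05 and 0 under an adjusted p of 0.05. Over members with a sequence, the medians relative to that of all miRNAs were then 0.23 for let-7, 0.36 for miR-181 and 0.13 for miR-99/100 and miR-125. They were -0.43 for miR-15/16, -0.53 for miR-148 and miR-152, -0.32 for miR-26, -0.69 for miR-130 and miR-301, and 0.00 for miR-199 and miR-214. Fewer members than above entered for miR-15/16 (3) and for miR-199 and miR-214 (4). With the median of all not taken off, the medians of these members went from -0.45 to -0.32 and from 0.23 to 0.11. Relative to all, the median of the 8 hedgehog-related strands with a sequence was -0.13. That of the 3 miRNAs with a sequence among those that do not need Drosha was -0.25. With the median of all not taken off, these medians went from 0.29 to -0.02 and from 0.20 to -0.14 with this step. The 0.42 given above for miRNAs that do not need Drosha was over 5 miRNAs, a different set.

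**Figure D5:**
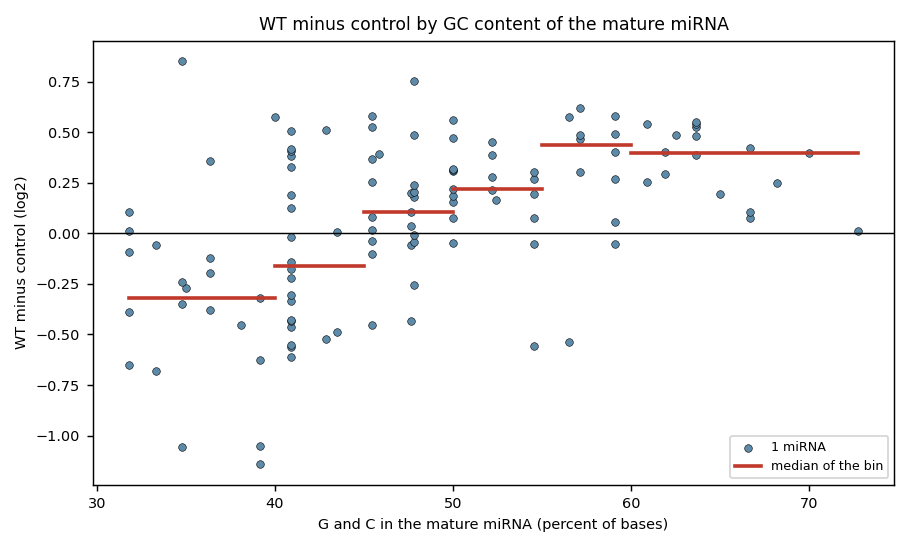
WT minus control (vertical axis, log2) against the percentage of G and C in the mature strand (horizontal axis) for the 118 miRNAs with a RefSeq sequence. Points are miRNAs, and red bars are the medians of 6 parts, which go from -0.32 under 40% to 0.40 at 60% and above.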

How the data were processed

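miRNAs were measured on one-colour Agilent arrays. The authors deposited Feature Extraction output with the background-subtracted, detrended intensity of each spot, not normalized between arrays (version 10.7.1.1 in the file headers, 9.1 in the sample labels). The deposited table of the series held the same intensity values to within 0.005 signal units, and was no separate alternative. Control and outlier spots were left out, spots of a probe were averaged, and a probe was detected where over 50% of its spots were marked well above background. Scaling used the 75th percentile of signal among the 174 probes that all 8 arrays detected, then a floor of 16.9 signal units (4.08 on the log2 scale) was set and log2 was taken. The probe with the highest mean signal stood for each miRNA, and arrays of one RNA were averaged. limma 3.58.1 in R 4.3.3 (lmFit, eBayes, Benjamini-Hochberg over 142 miRNAs, threshold 0.05) was fitted to all 6 RNA samples with 3 residual degrees of freedom, and was tested on simulated data. Their number limits the precision. The log2 differences are on the scale of the deposited intensities after this scaling.

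miRNAs were named by a rule: the 12 highest and 12 lowest differences among those detected on all 6 arrays with groups that did not overlap, the brightest and the farthest member of each list, the 10 brightest in control, and those detected in one group only. The miRNAs, lists and rule were chosen with earlier results of these data known. Alternatives covered scaling, quantile normalization, the total gene signal, normexp (offset 50), the floor, the filter, probes, outlier spots, technical arrays, the replicate block, samples in the fit, an intensity trend, the side of the slide and leaving out each replicate. Removal of a trend on G and C was added after seeing the data. Genome coordinates were not used here. Python 3.11.15, pandas 2.3.3, numpy 2.4.6 and matplotlib 3.10.9 were used.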

Additional observations from a re-analysis of the deposited data

How the results depend on the processing

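The count of 0 miRNAs at an adjusted p under 0.05 in limma was 22 with normexp background correction, 3 with the total gene signal over 166 miRNAs (let-7c-1-3p, miR-712-5p and miR-30e-5p, the last at 2.70 against -0.55), 1 with 0.5 times the floor (miR-101a-3p) and 1 with only the WT and control groups in the fit (miR-29b-3p). The count at an unadjusted p under 0.05, 40, was 3 with scaling over all mouse probes, 12 with the total gene signal, 9 with slide side as a covariate, which is the fit without WT replicate 1 since no other sample separates side from group, and 24 after a trend on G and C was removed, the last chosen after seeing the data. The count beyond a fold of 2, 3, was 5 with scaling over all mouse probes, 33 with the total gene signal, 0 with normexp, the mean of all probes or slide side, and 1 among miRNAs detected on all 6 arrays or after the trend on G and C was removed. The count with groups that did not overlap, 74, was 39 with scaling over all mouse probes. The median difference of 0.12 and the 61.3% of differences above 0 were -0.19 and 29.6% with scaling over all mouse probes, -0.0041 and 49.4% with the total gene signal, 0.23 and 80.3% with normexp, 0.012 and 52.1% with 2 times the floor, 0.17 and 65.4% among miRNAs detected on all 6 arrays, and 0 and 21.3% without a filter, where most miRNAs lie at the floor in both groups. The share was 57.7% with quantile normalization. The cause of these shifts was not tested.

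With 1 replicate left out, 0 miRNAs had an adjusted p under 0.05, 9 to 40 an unadjusted p under 0.05 and 0 to 5 a fold above 2, groups did not overlap for 82 to 116, the median difference was 0.068 to 0.149 and the share above 0 was 56.3% to 59.9%. A lone sample was then assumed to vary like the other groups. The replicate numbers are shared by the groups only as numbers, with a correlation of 0.39 between the deviations of same-numbered WT and control samples over the miRNAs tested. With the replicate block, 0 miRNAs had an adjusted and 41 an unadjusted p under 0.05. For the 24 miRNAs at both ends, 526 values under alternatives were computed. In 6 the sign was reversed, with normexp for miR-218-5p (0.12), miR-152-3p (0.018) and miR-350-3p (0.088), and with the total gene signal for miR-455-3p (-0.52), miR-29b-3p (2.41) and miR-350-3p (0.11). Relative to the median of all miRNAs the 3 normexp values were -0.12, -0.22 and -0.14. In 12 of the 526 values the adjusted p in limma fell under 0.05, 11 of them with normexp. The arrays of WT replicate 1 had a higher SD of the negative control spots and fewer miRNAs detected. Whether this affected the values of dim miRNAs was not tested. The value table of the series was not run, since its values equal those used.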

Other observations

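For 4 of the miRNAs tested the control samples differed by more than 1 on the log2 scale, and they were picked out after their values were seen. miR-210-3p, which low oxygen raises in many cells, read 9.03 in control replicate 1 and 7.16 in control replicate 2, and 8.96 and 9.04 on the arrays of WT replicate 1 and 8.13 and 8.17 on those of WT replicate 2, so that the control samples spanned both WT samples. miR-503-5p, which shares a transcript with miR-322, read 5.80 and 7.14 in control and 5.47 and 6.39 in the WT group. miR-1224-5p and miR-1895 also read higher in replicate 2 of each group, at 8.68 and 9.99 and at 5.29 and 6.59 in control. In all 4 the WT replicates differed in the same direction as the control replicates of the same number. A difference between the groups for these miRNAs is smaller than the spread between replicates, with 0.48 ± 0.57 (SE) for miR-210-3p and -0.54 ± 0.57 for miR-503-5p.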
